A study of Danio rerio with 3 samples.

Results

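Cluster 0 is the largest of 7 clusters that the submitters gave to single cells of adult zebrafish hearts, and it is described here by its own genes and by its differences from the other clusters. Its members are all cells with the number 0 in the finer of 2 deposited clusterings, which makes 281 of 754 cells. The study is about how amino acids and mTOR act when the heart regenerates. It held 3 droplet libraries, in which each RNA molecule is counted by a unique molecular identifier (UMI). Day 0 hearts were collected before any metronidazole. Day 3 and day 7 hearts came from fish that had been in 5 mM metronidazole with 0.1% DMSO for 48 hours, a drug that kills cells carrying a bacterial nitroreductase. The strain is given as AB, and a line with nitroreductase in ventricular cardiomyocytes (vmhc:mCherry-NTR) is among those listed, but no label says which line gave these libraries. Each library pooled 6 hearts, 3 from males and 3 from females, digested as 2 sets of 3, from fish of about 5 to 12 months, with 2600 cells loaded. Day, drug and library cannot be told apart, because each day had 1 library.

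Endothelial cells line every vessel, and the endocardium is the endothelial layer of the heart chambers. Both carry junction proteins such as VE-cadherin, receptors for vascular growth factors and water channels. In the zebrafish heart the endocardium responds to loss of cardiomyocytes and signals to the muscle while it regrows.

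Cluster 0 held 72 of 272 cells at day 0 (26.5%, interval 21.3 to 32.1), 16 of 114 at day 3 (14%, 8.24 to 21.8) and 193 of 368 at day 7 (52.4%, 47.2 to 57.6). The labels state a recovery of 141 cells at day 3, against the 114 in the table. Its cells held 195062, 90611 and 690373 UMIs at the 3 days, and their median was 2323, 3447 and 2976 UMIs per cell. Over all days the median was 2753 UMIs and 547 genes per cell in cluster 0, against 3044 UMIs and 645 genes in all other cells. The median share of UMIs from mitochondrial-encoded genes was 2.00%, 1.12% and 0.592% in cluster 0 at the 3 days. A few cells stood apart. The deepest day 3 cell had 31129 UMIs, 34.4% of the UMIs of cluster 0 on that day, so for the named genes its part in the day 3 UMIs is given where it is large. In 2 cells, both of cluster 0, globin genes made up over 10% of UMIs, with 79.9% in the higher, and summed erythroid markers stood at 4677 counts per 1000000 UMIs (CPM) in cluster 0 against 72.2 in all other cells. No doublet caller was run, and cells that carry RNA of other types were kept.

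Levels below are UMIs summed over the cells of a group and scaled to CPM, with exact Poisson intervals at 95%. Shares of cells are those with at least 1 UMI of a gene after every cell was thinned to 2000 UMIs, with exact Clopper-Pearson intervals at 95%. Log2 ratios carry a pseudocount of 10 CPM, so they understate differences of low genes. Intervals cover counting error only, and variation between cells, fish and libraries lies outside them. The clusters were made from the same genes, and cells are not replicates, so no test is given and every difference is a description.

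Endothelial markers stood higher in cluster 0 than in all other cells over the 3 libraries together and at days 0 and 7, but not at day 3, and endocardial markers stood lower. The table holds 21 endothelial marker genes, of which 20 were detected in cluster 0, and together they reached 4246 CPM, against 2904 CPM in all other cells. At day 0 the sum was 7992 CPM in cluster 0 and 3645 in all other cells, at day 3 it was 3234 and 4419, and at day 7 it was 3320 and 1248. Over all days the sum was 6527 CPM in cluster 2, 5389 in cluster 6 and 4281 in cluster 3. The last was close to the 4246 of cluster 0. In the mural-like cells of cluster 1, the contractile cells around vessels, the same markers stood at 349 CPM over all days. The clusters differ in their mix of days, and the order changed within a day. At day 0 the sum was 7992 CPM in cluster 0 and 7095 in cluster 2. It was 3234 in cluster 0 and 3907 in cluster 3 at day 3. At day 7 it was 3320 in cluster 0, 3421 in cluster 2 and 5078 in cluster 3. The median share of a cell's UMIs from these markers did not always follow these sums. Over all days it was 0.340% in cluster 0 and 0.186% in cluster 3. At day 0 it was 0.529% in cluster 0 and 0.596% in cluster 2. It was 0.233% in cluster 0 and 0.181% in cluster 3 at day 3, and 0.284% and 0.185% at day 7. The highest share in a cluster 3 cell at day 7 was 2.36%. aqp8a.1, a water channel, was found in 83.6% of cluster 0 cells (78.8 to 87.8), against 45% of all other cells (40.5 to 49.6) and 20.8% of cluster 1 cells. The adhesion molecule cdh5 (VE-cadherin) was found in 31.3% of cluster 0 cells, against 15.4% of all other cells and 2.68% of cluster 1 cells. ramp2, a partner of the adrenomedullin receptor, was found in 30.6% of cluster 0 cells, against 19.9% of all other cells and 3.36% of cluster 1 cells. Each of these genes was thus more frequent in cluster 0 than in cells that should lack it, whose median depth was 2924 UMIs, close to the 2753 of cluster 0. Endocardial markers summed to 324 CPM in cluster 0, below the 669 CPM of all other cells. Cluster 0 also stood below the 523 CPM of cluster 2 and the 409 of cluster 3. At day 3 the endocardial sum was 88.3 CPM in cluster 0 and 412 in cluster 3. nfatc1, the transcription factor of endocardial cushions and valves, had 6 UMIs in cluster 0 and 8 in all other cells. gata5, a transcription factor of heart and endocardium, was in 25.3% of cluster 0 cells, 26.4% of all other cells and 25.5% of cluster 1 cells. Those levels do not separate endocardium from other endothelium, so the group is called cluster 0 below.

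Markers of other cells were present at the following levels. Mural markers summed to 716 CPM in cluster 0 and 7565 in all other cells, and fibroblast markers to 1186 and 3643. Macrophage markers summed to 357 CPM in cluster 0 and 411 in all other cells. In cluster 0, 12 of 15 such genes were detected, and mpeg1.1, mfap4 and coro1a were at 0. At day 0 the sum was 374 CPM in cluster 0 and 325 in all other cells. It was 2329 and 571 at day 3, and 92.7 and 400 at day 7. The day 3 sum in cluster 0 was 211 UMIs, with a median share per cell of 0% and a highest share of 0.633%. In the deepest day 3 cell, with 31129 UMIs, that highest share would make up most of the 211. T, NK and B cell markers were at 0. Cardiomyocyte markers summed to 28764 CPM in cluster 0 and 27815 in all other cells, against 153653 in the cardiomyocyte-like cluster 5. The sum was 49789 CPM in cluster 2 and 9928 in cluster 3. Per cell, the median share of UMIs from these markers was 2.19% in cluster 0, 0.672% in all other cells and 4.84% in cluster 2. Most of the cardiomyocyte sum in cluster 0 was mb, the myoglobin gene, with 15956 CPM. The level of myl7, a cardiac myosin light chain, was 5331 CPM in cluster 0 and 7179 in all other cells. The part of free or carried-over cardiomyocyte RNA in these values was not tested.

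The 5 genes in the working name were all higher in cluster 0 than in all other cells over the 3 libraries together, and they differed in how many cells carried them. Within a library this did not hold for each of them. At days 0, 3 and 7 the log2 ratio was 1.16, -0.64 and 1.82 for spock3, 0.71, -0.61 and 2.93 for id2b, and 2.45, 0.00 and 2.33 for jam2a. It was 1.59, 4.24 and 3.58 for hmox1a and 1.00, 1.05 and 1.87 for gchfr. At day 3, where most other cells are in clusters 3 and 6, spock3 and id2b were thus lower in cluster 0. spock3, a secreted proteoglycan of the testican family, had 3261 CPM in cluster 0 (3149 to 3376) against 2162 in all other cells. It was found in 88.6% of cluster 0 cells, 58.8% of all other cells and 26.8% of cluster 1 cells. id2b, an Id protein that binds and blocks helix-loop-helix transcription factors, had 4952 CPM in cluster 0 (4813 to 5093) against 1732 in all other cells. It was in 93.2% of cluster 0 cells, 61.9% of all other cells and 26.8% of cluster 1 cells. These 2 genes were in nearly every cell of the cluster. After thinning and over all days, the other 3 were in fewer than 40% of cells. hmox1a, which encodes heme oxygenase, the enzyme that breaks down heme, was in 35.9% of cluster 0 cells, 22.4% of all other cells and 5.37% of cluster 1 cells. jam2a, a junctional adhesion molecule, was in 39.9% of cluster 0 cells, 15.6% of all other cells and 6.71% of cluster 1 cells, and without thinning in 50.9% of cluster 0 cells. gchfr, a feedback regulator of the enzyme that starts tetrahydrobiopterin synthesis, was in 32.0% of cluster 0 cells, 15.9% of all other cells and 22.8% of cluster 1 cells. For gchfr the share in cluster 1 was above that of all other cells. What part of the share in cluster 0 is background was not tested.

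Over all days, a cell with at least 3 of the 5 genes was usual in cluster 0 and in cluster 2, and rarer elsewhere. At least 3 of the 5 were found in 65.5% of cluster 0 cells, 69.4% of cluster 2 cells, 37.5% of cluster 3 cells, 33.3% of cluster 6 cells and 4.03% of cluster 1 cells. Within cluster 0 the share was 76.4% at day 0, 37.5% at day 3 (6 of 16 cells) and 63.7% at day 7. At day 3 it was 41.7% in cluster 3 and 35.3% in cluster 6, and at day 7 it was 31.8% in cluster 3. Carrying at least 3 of the 5 genes therefore did not set cluster 0 apart from cluster 2, nor at day 3 from clusters 3 and 6.

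**Figure D1:**
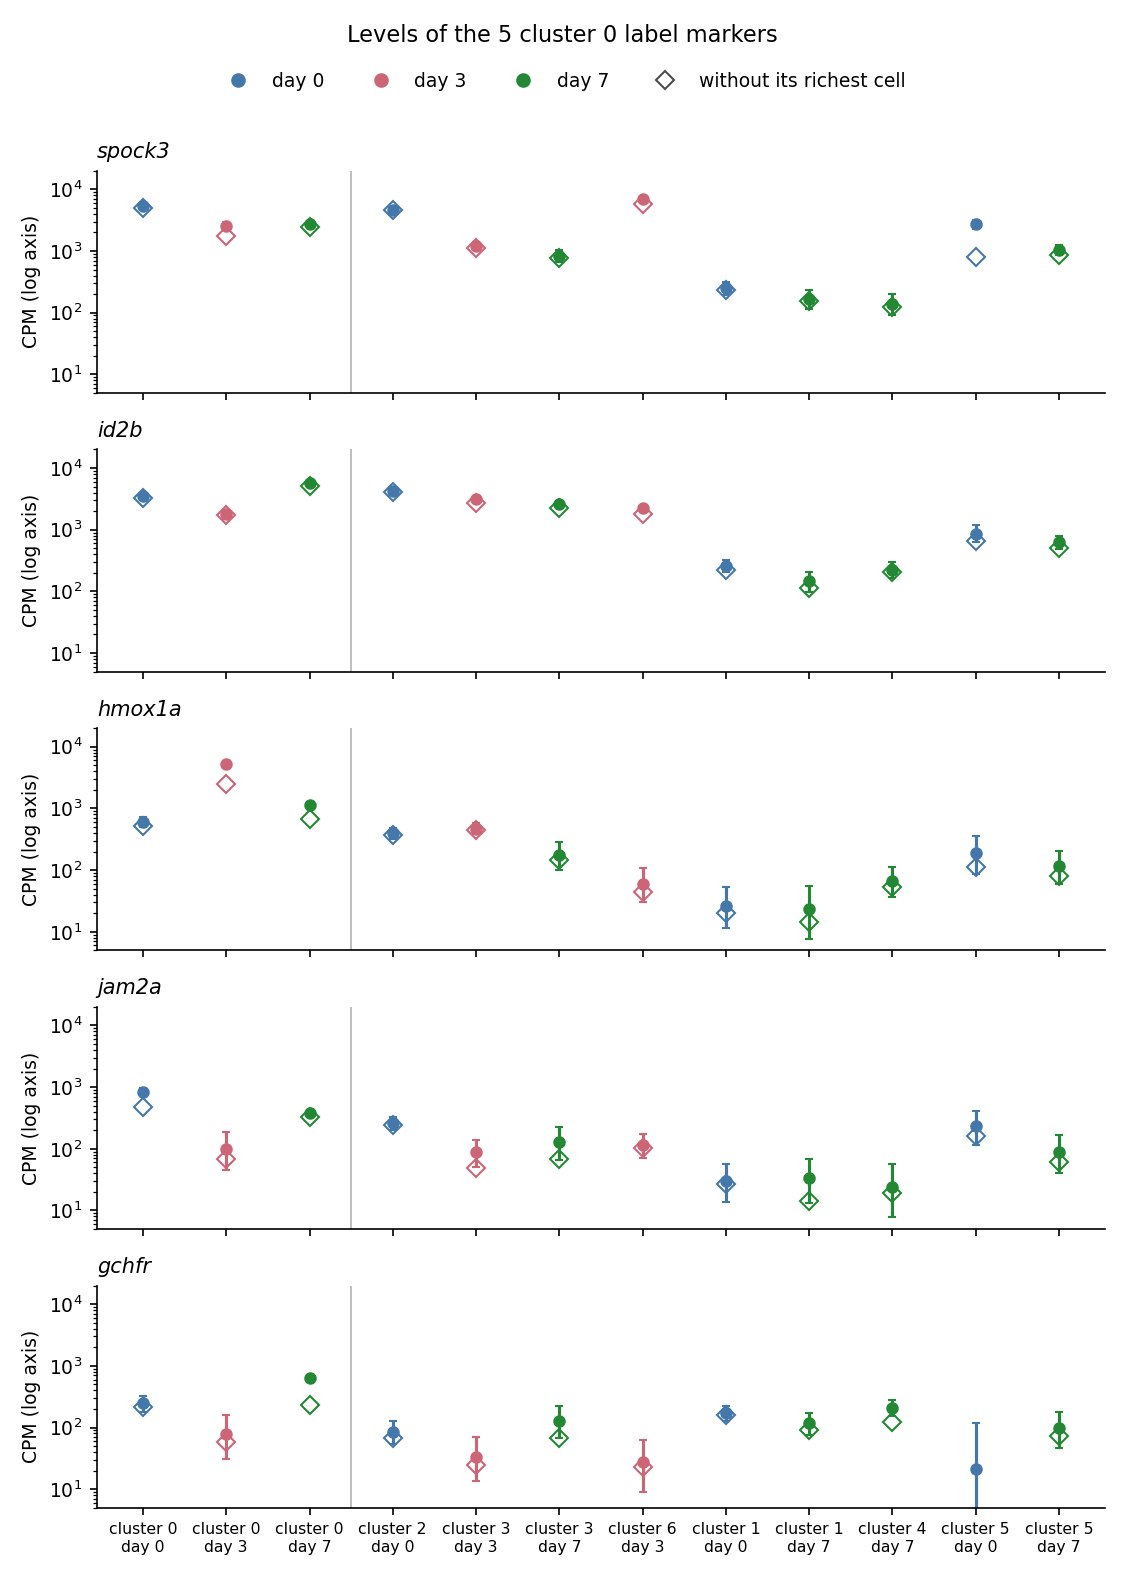
Levels of the 5 genes in CPM (log axis) for each cluster and day with at least 16 cells; error bars are exact Poisson 95% intervals and diamonds leave out the cell with most UMIs of that gene. spock3 and id2b are high in all endothelial clusters, and hmox1a is highest in cluster 0 at day 3, where 2 cells hold most of it.

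Some of the levels in cluster 0 came from very few cells. hmox1a had 610 CPM at day 0 (505 to 730), 5242 at day 3 (4781 to 5736) and 1133 at day 7 (1055 to 1215). At day 3, 277 and 184 of its 475 UMIs came from 2 cells, and over all days only 8 of the 281 cells had 10 or more UMIs of it. Its cell median was 279 CPM on day 0 and 0 on the later days. gchfr stood at 246, 77.3 and 627 CPM on the 3 days, and 272 of its 488 UMIs came from 1 day 7 cell, in which the next cell had 8. Leaving out the richest cell on each side, the log2 ratio of cluster 0 over all other cells was 1.01 for gchfr, against 2.02 with it. The other genes moved less, with 2.64 against 2.98 for hmox1a, 1.80 against 1.99 for jam2a, 1.39 against 1.51 for id2b and 0.58 against 0.59 for spock3. The spock3 medians per cell, in CPM, stood at 4326, 1045 and 1998 on days 0, 3 and 7, and those of id2b at 2621, 1499 and 2751. For these 2 genes most cells carried UMIs, while for hmox1a, jam2a and gchfr the level came from some cells. Over all days the lower quartile per cell was 1188 CPM for spock3 and 1423 for id2b. Their sums could still stand well above the typical cell. The id2b sum over all days was above its upper quartile per cell, 4689 CPM. At day 3 the spock3 sum was likewise above its upper quartile, 2325 CPM.

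**Figure D2:**
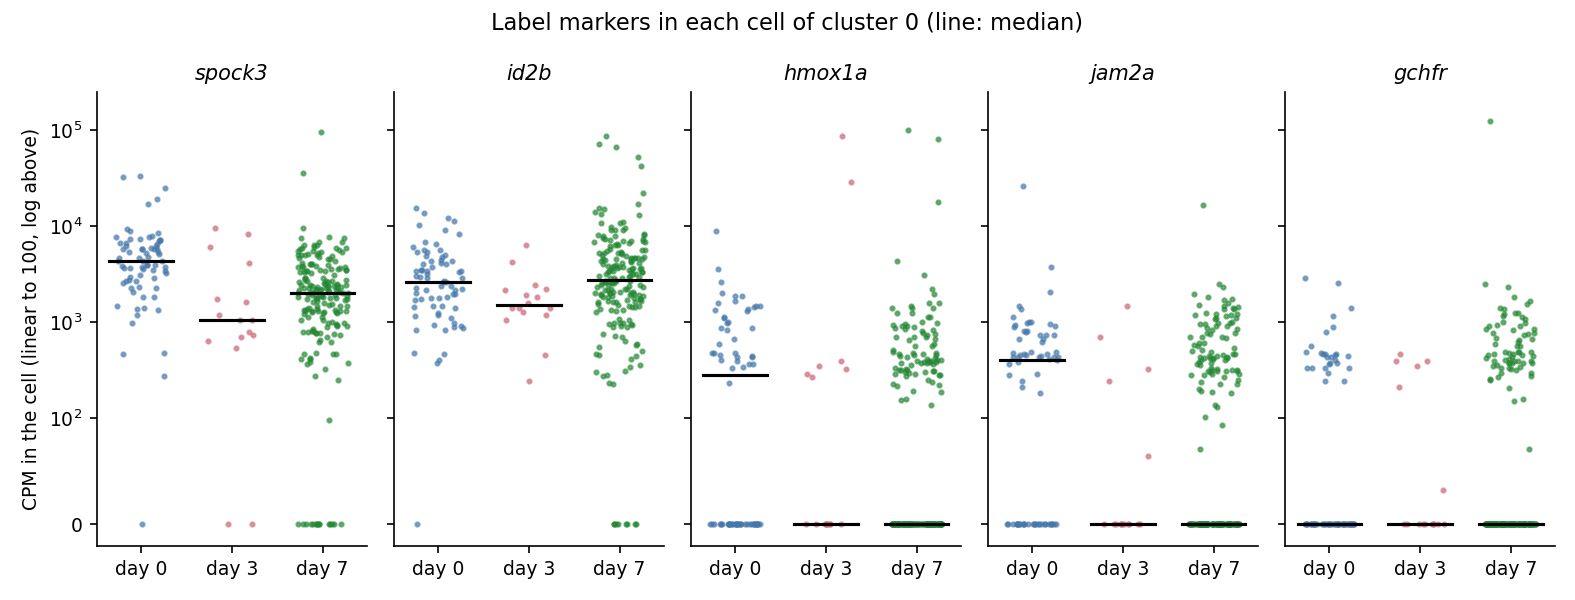
Level of each of the 5 genes in every cluster 0 cell, by day, in CPM of that cell; each point is 1 cell and the horizontal bars are medians. spock3 and id2b form a continuous band at every day, whereas most cells are at 0 for gchfr and, at days 3 and 7, for hmox1a and jam2a.

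Against all other cells, more genes were lower in cluster 0 than higher. Of 1599 genes measured, 100 (6.25%) were at least 2-fold higher in cluster 0 and 310 (19.4%) at least 2-fold lower. The median log2 ratio of the 1599 was -0.30, so the ratios as a whole lay on the lower side. A gene was measured when it had at least 20 UMIs over both sides and was in at least 10% of the cells of either side. Without the richest cell of each gene on each side, 36 of the 100 and 216 of the 310 were still at least 2-fold apart. In 54 of the 100 and 57 of the 310, over 50% of the UMIs of a side came from 1 cell. Counted as shares of cells, a rule chosen after seeing the data, 15 of 1099 genes (1.36%) were in at least 20 percentage points more of the cluster 0 cells and 38 (3.46%) in at least 20 points fewer. Of the 1099, 396 were above 0 and 687 below, with a median of -2.03 points.

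**Figure D3:**
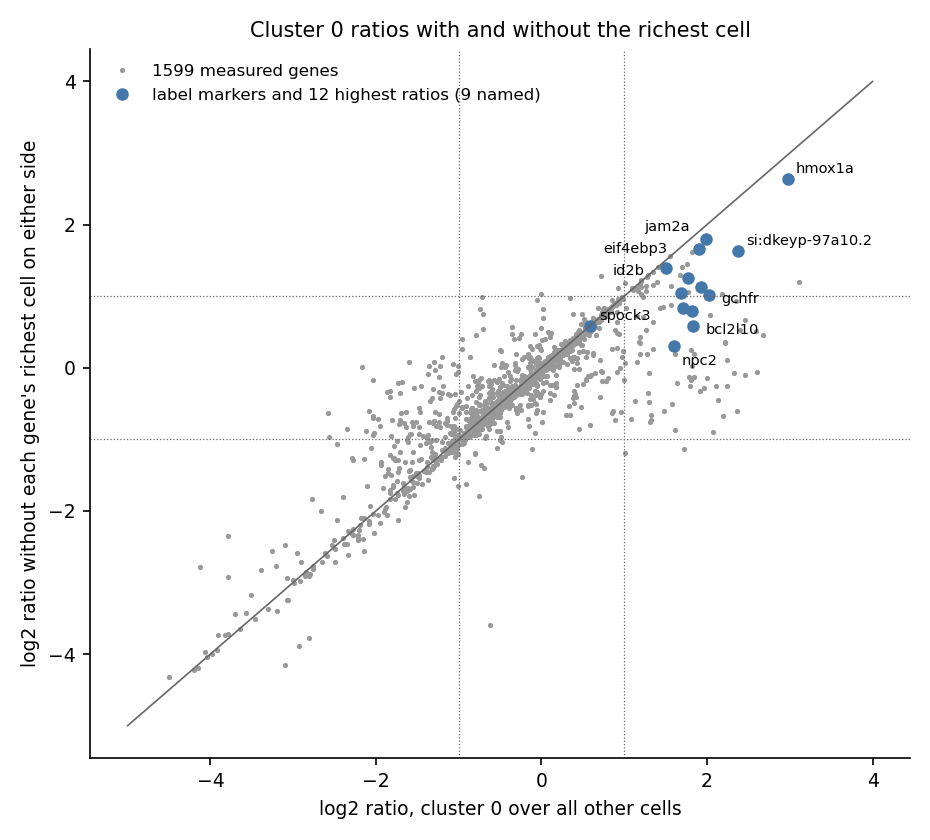
Log2 ratio of cluster 0 over all other cells for 1599 genes with all cells (horizontal axis) and without the richest cell of each gene on each side (vertical axis). Points far below the diagonal on the right, such as gchfr and npc2, owe much of their ratio to 1 cell, whereas the mural genes at lower left stay where they are.

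Among the genes higher in cluster 0, the endothelial ones were spread over many cells. Of the 14 endothelial markers measured, 10 were above 0 and 4 below, with a median log2 ratio of 0.46, against -0.30 over all 1599 genes. tek, the receptor of angiopoietin, had a log2 ratio of 1.15 and 1.12 without its richest cell. aqp1a.1, another water channel, had 1.27 on both counts. The summed level of cdh5 was 230 CPM in cluster 0 and 238 in all other cells, since 221 of the 412 UMIs of the others came from 1 cell. By share of cells cdh5 was more frequent in cluster 0, as given above. fabp11a, a fatty acid binding protein, had 20235 CPM in cluster 0 and 7590 in all other cells, a log2 ratio of 1.41. The detoxifying enzyme mgst1.2 was in 55.9% of cluster 0 cells and 31.5% of all other cells, and f8, which encodes coagulation factor VIII, in 29.9% and 15.6%. Further genes with broad gains in share were tmem88b in 81.5% of cluster 0 cells and 44.4% of all other cells, marcksl1b in 63.3% and 30.7%, ponzr1 in 68.3% and 38.1%, and the granule proteoglycan srgn in 82.9% and 52.9%. Few of these genes were at least 20 points more frequent in cluster 0 than in the other endothelial clusters. At day 0 and at day 7, mgst1.2, f8, tmem88b, marcksl1b, ponzr1 and srgn all fell short of that. At day 3, f8 was at least 20 points higher than in clusters 3 and 6, and tmem88b and marcksl1b than in cluster 6 only. For srgn the share differed by -0.19 points from cluster 2 at day 0. At day 3 it differed by -8.33 points from cluster 3 and -1.47 from cluster 6, and at day 7 by 2.89 from these clusters together. mgst1.2 was at least 20 points lower in cluster 0 than in cluster 3 at day 3.

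Among genes in at least 25% of the cells of the higher side, the largest ratios belonged to genes with uneven counts. Beside hmox1a, gchfr and jam2a, the top 12 held si:dkeyp-97a10.2 (log2 ratio 2.38, and 1.63 without the richest cells), si:ch211-71m22.1 (1.93 and 1.13), gltscr2 (1.77 and 1.26), nap1l1 (1.71 and 0.83), ndufa8 (1.82 and 0.80) and 1 further transcript named only by its clone (1.68 and 1.04). In bcl2l10, of the Bcl-2 family of apoptosis regulators, 1 cell held 267 of 439 UMIs, and the ratio of 1.83 was 0.59 without it. In npc2, a lysosomal cholesterol carrier, 1 cell held 363 of 586 UMIs, and the ratio of 1.60 was 0.30 without it. eif4ebp3 was steadier when its richest cells were left out, but not between days. This gene of the 4E-BP family, which hold back translation when mTOR is inactive, had a ratio of 1.90 and 1.66 without its richest cells, and was in 46.6% of cluster 0 cells against 22.0% of all other cells. Against all other cells its ratio was 2.52, -0.54 and 2.40 at days 0, 3 and 7. At day 3 it was 0.51 over cluster 3 and -1.25 over cluster 6, and 0.46 and -1.40 without the richest cells. Of the 12 measured genes of the mTORC1 list, 2 were at least 2-fold higher in cluster 0 (eif4ebp3 and lamtor5) and 1 was lower (sesn1), with a median of -0.44.

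The genes lower in cluster 0 were led by those of contractile and matrix-forming cells. Of the 7 mural markers measured, 6 were at least 2-fold lower, with a median log2 ratio of -3.91. rgs5a, a pericyte gene, had 29.7 CPM in cluster 0 and 887 in all other cells. acta2, smooth muscle actin, had 160 CPM in cluster 0 and 2677 in all other cells, and tagln, which encodes transgelin, had 107 and 2064. lmod1b, an actin nucleator of smooth muscle, had a log2 ratio of -3.91. rbp4, the retinol carrier, had 116 CPM in cluster 0 and 2297 in all other cells, and itih1 had a log2 ratio of -4.05. ALKBH3 (2 of 2) and si:busm1-57f23.1 complete the 8 lowest, at -4.07 and -3.92. These 8 differences held without the richest cells. Summed mural markers were lower in cluster 0 at each day, with 605 CPM against 7736 in all other cells at day 0, 618 against 1650 at day 3 and 760 against 10981 at day 7. Low mural levels were shared with clusters 2 and 3. Over all days the sum was 716 CPM in cluster 0, 535 in cluster 2 and 770 in cluster 3, against 18554 in cluster 1. By share of cells, 2 of 4 mural genes were above 0 against cluster 2 at day 0. At day 3 it was 3 of 4 against cluster 3 and 1 of 6 against cluster 6. Of 22 extracellular matrix genes 14 were at least 2-fold lower and 5 above 0, with a median of -1.37. That median was -0.77 at day 0, 0.08 at day 3 and -2.08 at day 7, so at day 3 the list was not lower in cluster 0.

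Several chaperone genes were lower as well. Of 29 heat shock and chaperone genes measured 13 were at least 2-fold lower in cluster 0 and 1 higher, with a median of -0.89, against 19.4% lower and a median of -0.30 over all genes. At days 0, 3 and 7 alone the chaperone median was -0.25, -0.39 and -0.89, against -0.11, -0.53 and -0.37 over all genes. hsp70l was in 25.6% of cluster 0 cells and 63.8% of all other cells, hsp70.3 in 26.0% and 60.9%, and dnajb1b, an Hsp40 co-chaperone, in 12.1% and 37.4%. The hsp70 genes are near-identical copies whose reads could be split among them. Of 78 nuclear genes of oxidative phosphorylation 21 were at least 2-fold lower and 2 higher, a share of lower genes near the 19.4% of all genes, and the median was -0.58. The mitochondrial-encoded genes depended on the day. All 13 were below 0 over the 3 libraries together, with a median of -0.49, but at days 0, 3 and 7 alone the median was -0.16, 0.89 and -0.32. Their median share of UMIs per cell was 2.00% in cluster 0 and 2.04% in all other cells at day 0, 1.12% and 0.725% at day 3, and 0.592% and 0.628% at day 7. Of 77 cytosolic ribosomal protein genes 59 were above 0, with a median of 0.16, and that median was -0.03, 0.14 and 0.34 at days 0, 3 and 7 alone. Median genes per cell were 547 in cluster 0 and 645 in all other cells, and the part of that gap in these lists was not tested.

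All other cells are mostly of other types, so the closer comparison is with the endothelial clusters 2, 3 and 6 within a library. At day 0 that was cluster 2, with 86 cells against 72. Several genes high in both stood at similar levels. spock3 had 5419 CPM in cluster 0 and 4653 in cluster 2, fabp11a 21788 and 23103, aqp8a.1 4988 and 4243, and id2b 3471 and 4239. Of 1413 genes measured, 88 (6.23%) were at least 2-fold higher in cluster 0 and 166 (11.7%) at least 2-fold lower, with a median log2 ratio of -0.11. Without the richest cells 40 of the 88 and 116 of the 166 held. By share of cells 8 of 1298 genes (0.616%) were at least 20 points higher and 12 (0.924%) at least 20 points lower. Cluster 2 was thus close to cluster 0 by most genes.

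A few genes stood higher in cluster 0 at day 0, and none of the 5 working-name genes differed by 20 points in share. jam2a was in 52.8% of cluster 0 cells (40.7 to 64.7) and 39.5% of cluster 2 cells (29.2 to 50.7), with 836 and 258 CPM, and 72 of its 163 cluster 0 UMIs came from 1 cell. Its log2 ratio was 1.66, and 0.94 without the richest cells, and the intervals of the shares overlap. gchfr was in 29.2% of cluster 0 cells and 11.6% of cluster 2 cells, but also in 29.5% of cluster 1 cells. Its share in cluster 0 was thus not above that of the mural-like cells, and what part of it is background was not tested. rpl22l1, a ribosomal protein paralog, was in 54.2% of cluster 0 cells and 30.2% of cluster 2 cells, with a log2 ratio of 2.53 and 1.65 without the richest cells. The respiratory chain genes COX7A2 (2 of 2) and cox4i1 were in 40.3% and 66.7% of cluster 0 cells, against 16.3% and 43.0% of cluster 2 cells. Most genes of their kind went the other way, since by share of cells 27 of 71 nuclear genes of oxidative phosphorylation were above 0 and 44 below, with a median of -3.59 points. That balance was near that of all 1298 genes, of which 481 were above 0 and 772 below, with a median of -1.87 points. The detoxifying enzymes gstm and glo1 were in 40.3% and 45.8% of cluster 0 cells, against 17.4% and 24.4% of cluster 2 cells. The other highest ratios were sec61b (2.34, and 1.62 without the richest cells), gltscr2 (2.84 and 1.08), btg2 (2.21 and 0.98), tceb1b (2.09 and 0.45) and cd81a (2.11 and 0.25). In gltscr2, 111 of 150 cluster 0 UMIs came from 1 cell.

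Most single endothelial markers and some glycolytic genes stood higher in cluster 2, but the summed endothelial markers did not. Their sum was 7992 CPM in cluster 0 and 7095 in cluster 2. The median share of a cell's UMIs from them went the other way, with 0.529% in cluster 0 and 0.596% in cluster 2. The highest share in a cell was 8.26% in cluster 0 and 5.07% in cluster 2. epas1b, which encodes a hypoxia-inducible transcription factor, was in 40.3% of cluster 0 cells and 65.1% of cluster 2 cells. flt1, a decoy receptor of VEGF, had 66.7 CPM in cluster 0 and 163 in cluster 2, and she, an endothelial adaptor protein, 41.0 and 120. Of the 14 endothelial markers measured 4 were above 0 and 10 below, with a median of -0.55, and she and ecscr were at least 2-fold lower. Of 15 glycolysis genes 5 were at least 2-fold lower in cluster 0 (pgk1, aldocb, ldha, gpia and ldhba), and 4 of these held without the richest cells. The cytoskeletal genes tuba8l4 and flna were in 8.33% and 5.56% of cluster 0 cells, against 37.2% and 26.7% of cluster 2 cells. The chaperones hsp70l and hspe1 were in 33.3% and 2.78% of cluster 0 cells, against 54.7% and 23.3% of cluster 2 cells. The 4 lowest ratios by rule were zgc:123068 (-3.28, and -2.26 without the richest cells), snrpd1 (-3.26 and -1.42), hnrnpa0b (-3.18 and -1.57) and si:dkey-188i13.7 (-2.51 and -2.67). Median UMIs were 2323 in cluster 0 and 2805 in cluster 2, and the shares above were taken at equal depth.

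At day 3 cluster 0 had 16 cells, with 60 in cluster 3 and 34 in cluster 6. The 2 comparisons below use the same 16 cells, and some levels of cluster 0 on that day lean on the deepest cell. That cell held 292 of the 334 UMIs of tmem88b, 238 of 245 of psmb3, 76 of 79 of abcc2, 38 of 42 of tjp1a, 57 of 61 of snrpb and 128 of 234 of spock3, but 9 of 475 of hmox1a, 1 of 82 of atf4a and 0 of 125 of si:ch211-218c6.8. The highest ratios over cluster 3 were abcc2 (5.49, and 2.02 without the richest cells), tjp1a (5.00 and 2.95), snrpd1 (4.19 and -0.56), si:ch211-218c6.8 (4.16 and -0.66), atf4a (3.85 and -0.11) and psmb3 (3.81 and -0.50). In 4 of these 6 the sign turned without the richest cell.

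Against cluster 3 at day 3, cluster 0 was low in stress, proteasome, glycolysis and nuclear respiratory genes, but not in mitochondrial-encoded ones. Of 924 genes measured 61 (6.6%) were at least 2-fold higher in cluster 0 and 278 (30.1%) at least 2-fold lower, with a median log2 ratio of -0.52. Without the richest cells 14 of the 61 and 243 of the 278 held. By share of cells 21 of 1493 genes (1.41%) were at least 20 points higher and 118 (7.9%) at least 20 points lower. gadd45ba, a growth arrest and DNA damage gene, was in 25% of cluster 0 cells and 68.3% of cluster 3 cells. phlda2 was in 12.5% of cluster 0 cells and 61.7% of cluster 3 cells, hsp90aa1.2 in 12.5% and 55.0%, and dnajb1b in 6.25% and 46.7%.

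The lists pointed the same way over cluster 3. Of 23 immediate early and stress genes 12 were at least 2-fold lower in cluster 0 and 1 higher, with a median of -1.16, among them jun, fosab and junba. Of 23 proteasome genes 12 were lower and 2 higher, with a median of -1.04, and the 2 higher ones fell under 2-fold without the richest cells. Of 12 glycolysis genes 7 were lower (median -1.05), as were 27 of 66 nuclear genes of oxidative phosphorylation (median -0.78) and 5 of 9 cell cycle genes (median -1.24). Of 10 mitochondrial-encoded genes 8 were above 0, with a median of 0.41, and the median share of such UMIs was 1.12% in cluster 0 and 0.768% in cluster 3. Of 10 chemokine, cytokine and adhesion genes 7 were lower and 1 higher, with a median of -1.18. In that list lepb, a leptin gene, had 0 UMIs in cluster 0 and 42 in cluster 3, at least 6.14-fold lower against a floor of 3 counts in cluster 0. edn1, an endothelin, had 155 CPM in cluster 0 and 533 in cluster 3, and cxcl18b, a chemokine, had 199 and 571. The other lowest ratios were myl9b (-4.85, and -2.28 without the richest cells), arpc4l (-4.30 and -1.89) and ywhaqa (-4.13 and -2.38).

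A small set was higher in cluster 0 than in cluster 3. hmox1a had 5242 CPM in cluster 0 and 470 in cluster 3, a log2 ratio of 3.45 and 2.43 without the richest cells. Of its 475 cluster 0 UMIs, 277 and 184 came from 2 cells, and only the first of these was left out. The second ratio therefore still rests mostly on 1 cell. Its share of cells was 31.2% in cluster 0 (11 to 58.7) and 45% in cluster 3 (32.1 to 58.4), so the level and the share went opposite ways. f8 and podxl, a sialomucin of vessel lining, were each in 37.5% of cluster 0 cells and 6.67% of cluster 3 cells. zgc:158463 had 39576 CPM in cluster 0 and 6255 in cluster 3, with a log2 ratio of 2.66 and 2.83 without the richest cells. egfl7, a protein that endothelial cells secrete, had 320 CPM in cluster 0 and 121 in cluster 3, while ramp2 had 88.3 and 208.

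Of the 4 comparisons within a library, that with cluster 6 at day 3 had the largest share of genes past 2-fold, Notch target and immediate early genes among them. Of 839 genes measured 103 (12.3%) were at least 2-fold higher in cluster 0 and 272 (32.4%) at least 2-fold lower, with a median log2 ratio of -0.43. Without the richest cells 53 of the 103 and 228 of the 272 held. By share of cells 51 of 1439 genes (3.54%) were at least 20 points higher and 178 (12.4%) at least 20 points lower. Of 6 Notch pathway genes 5 were lower in cluster 0, with a median of -4.38. her4.2, a hairy-related repressor switched on by Notch, was in 12.5% of cluster 0 cells and 97.1% of cluster 6 cells, and her4.1 in 12.5% and 94.1%. By share of cells, 4 of 8 Notch genes were at least 20 points lower, and all 4 were her4 genes (her4.1, her4.2, her4.3 and her4.4). These are numbered copies and may not be independent, so the count and median above may largely restate 1 signal. her4.4 had 0 UMIs in cluster 0 and 155 in cluster 6, at least 25.6-fold lower, and the receptor gene aplnra for apelin had 0 and 284, at least 46.9-fold lower. arl5c had 0 UMIs in cluster 0 and 292 in cluster 6, at least 48.3-fold lower, each against a floor of 3 counts. In cluster 6, however, 1 cell held 245 of the 292 UMIs of arl5c and 1 cell 235 of the 284 of aplnra, against 12 of 155 of her4.4. With the richest cells left out the log2 ratio was -4.78 for arl5c, -4.84 for aplnra and -6.37 for her4.4, against -7.33, -7.29 and -6.42 with all cells.

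Immediate early genes were lower nearly throughout. Of 28 such genes measured 22 were at least 2-fold lower in cluster 0 than in cluster 6 and 1 higher, with a median of -1.85, and all 22 held without the richest cells. junba had 430 CPM in cluster 0 and 3864 in cluster 6, fosab 397 and 3699, and btg2 22.1 and 859. klf2a, a transcription factor that responds to blood flow, was in 6.25% of cluster 0 cells and 82.4% of cluster 6 cells. sox7, a transcription factor of vessel identity, was in 0 of 16 cluster 0 cells after thinning and in 67.6% of cluster 6 cells. vwf, the clotting protein stored in endothelial granules, was in 12.5% and 82.4%. Of 8 genes of BMP, TGF-beta and Id 5 were lower (id1, id3, id2a, bambia and smad6a), and id2b, in the same list, had a log2 ratio of -0.35. spock3 was also lower, with 2582 CPM in cluster 0 and 7049 in cluster 6. srsf3b, a splicing factor, had a ratio of -6.33 and -4.25 without the richest cells.

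Genes higher in cluster 0 than in cluster 6 included several that were even across cells. aqp8a.1 was in 81.2% of cluster 0 cells (54.4 to 96.0) and 26.5% of cluster 6 cells, and nppb, a natriuretic peptide gene, in 87.5% and 29.4%. zgc:158463 had 39576 CPM in cluster 0 and 679 in cluster 6, with a log2 ratio of 5.85 and 5.53 without the richest cells. mb had 13530 CPM in cluster 0 and 854 in cluster 6, and fabp11a 13872 and 1675. The cardiomyocyte markers, mb among them, were uneven over these cluster 0 cells. They had a median of 0.470% of a cell's UMIs and a maximum of 8.56%. What part of the mb level is carried-over RNA was not tested. The 3 fibroblast markers measured, all type I collagen genes, were higher in cluster 0, with 331 and 65.7 CPM for col1a1a and 298 and 71.1 for col1a2. Of 10 mitochondrial-encoded genes 7 were at least 2-fold higher, with a median of 1.15, and 4 of them held without the richest cells. Some lists that were low against cluster 3 were not low against cluster 6 by share of cells. Of 26 proteasome genes 20 were above 0 and 6 below, and of 13 glycolysis genes 9 and 4. Of 63 nuclear genes of oxidative phosphorylation 42 were above 0 and 21 below, against 633 and 739 of all 1439 genes. hmox1a had 5242 CPM in cluster 0 and 60.2 in cluster 6, a ratio of 6.23 and 5.48 without the richest cells. The cluster 0 cell with 184 of the 475 UMIs of hmox1a stays in that second ratio. abcc2 and tjp1a were at 0 in cluster 6 and were at least 53.1-fold and 28.2-fold higher in cluster 0, mostly in the deepest cell, and tmem88b (5.96 and 3.82) and psmb3 (5.39 and 1.39) leaned on it too. The gene tmem88b was in 50% of cluster 0 cells and 2.94% of cluster 6 cells.

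At day 7, cluster 0 had 193 cells and clusters 2, 3 and 6 together 31, of which 9 were cluster 2 and 22 cluster 3. Cardiomyocyte markers were higher in cluster 0 than in cluster 3 but near the level of cluster 2, and some collagen and heat shock genes were lower. Of 1601 genes measured 185 (11.6%) were at least 2-fold higher in cluster 0 and 252 (15.7%) at least 2-fold lower, with a median log2 ratio of -0.17. Without the richest cells the numbers past 2-fold were 202 higher and 153 lower, and the median was 0.01. Leaving out 1 cell per side takes a larger part of the 31 cells than of the 193. How far this difference in size made the balance of the 2 directions turn was not tested. By share of cells 12 of 1136 genes (1.06%) were at least 20 points higher and 54 (4.75%) at least 20 points lower.

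Of 11 cardiomyocyte markers measured at day 7, 8 were at least 2-fold higher in cluster 0 and 1 lower, with a median of 1.28. Their sum was 26057 CPM in cluster 0, against 23782 in the 9 cells of cluster 2 and 8579 in the 22 cells of cluster 3. myl7 had 4500 CPM in cluster 0 and 2060 in the other endothelial cells, cmlc1 3520 and 1122, and tpm4a 1840 and 504. actc1a, cardiac actin, was in 46.6% of cluster 0 cells and 25.8% of the others. Whether these cells made this RNA or took it up from the suspension was not tested. id2b had 5787 CPM in cluster 0 and 2543 in the others, a ratio of 1.18 and 1.1 without the richest cells. jam2a was in 37.8% of cluster 0 cells and 16.1% of the others, and eif4ebp3 in 45.6% and 25.8%. The endothelial genes she, etv2, esama, aqp1a.1 and tek were at least 2-fold higher, and each had 1 to 4 UMIs in the 31 other cells. cdh5 was lower by its sum because 1 of those cells held 221 of 251 UMIs, and its ratio was 0.00 without the richest cells. By share of cells, 5 of 10 endothelial markers were above 0 and 5 below, with a median of 0.51 points. Of these, 0 were at least 20 points apart. Summed endothelial markers, with all cells kept, stood at 3320 CPM in cluster 0, 3421 in cluster 2 and 5078 in cluster 3. Per cell, their median share of UMIs was 0.284% in cluster 0, 0.313% in cluster 2 and 0.185% in cluster 3. The highest ratios by rule were eif3ha (3.84, and 2.42 without the richest cells), tomm5 (2.85 and 1.47), hmox1a (2.55 and 1.97), npc2 (2.51 and 1.02), fabp3 (2.33 and 1.32) and gng2 (2.29 and 1.11). The share of cells with hmox1a was 33.2% in cluster 0 and 35.5% in the others. Its richest cluster 0 cell held 316 UMIs and the next 201, and only the first was left out above.

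On the lower side at day 7, col1a1a was in 25.9% of cluster 0 cells and 54.8% of the others, and 4 of 9 fibroblast markers were at least 2-fold lower, all collagens. junba was in 26.9% of cluster 0 cells and 58.1% of the others. The chromatin gene hmgb2b was in 35.2% of cluster 0 cells and 67.7% of the others. Of 10 cell cycle genes 5 were at least 2-fold lower and 2 higher, with a median of -1.04. Of 28 heat shock and chaperone genes 9 were at least 2-fold lower and 3 higher, and hsp70.2 was in 32.1% and 61.3%. The 4 lowest ratios were hsp90b1 (-5.49, and -1.75 without the richest cells), nutf2l (-5.39 and -1.81), eif3ba (-4.87 and -1.13) and txndc17 (-4.64 and -1.78). In hsp90b1, 231 of the 245 UMIs of the others came from 1 cell.

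**Figure D4:**
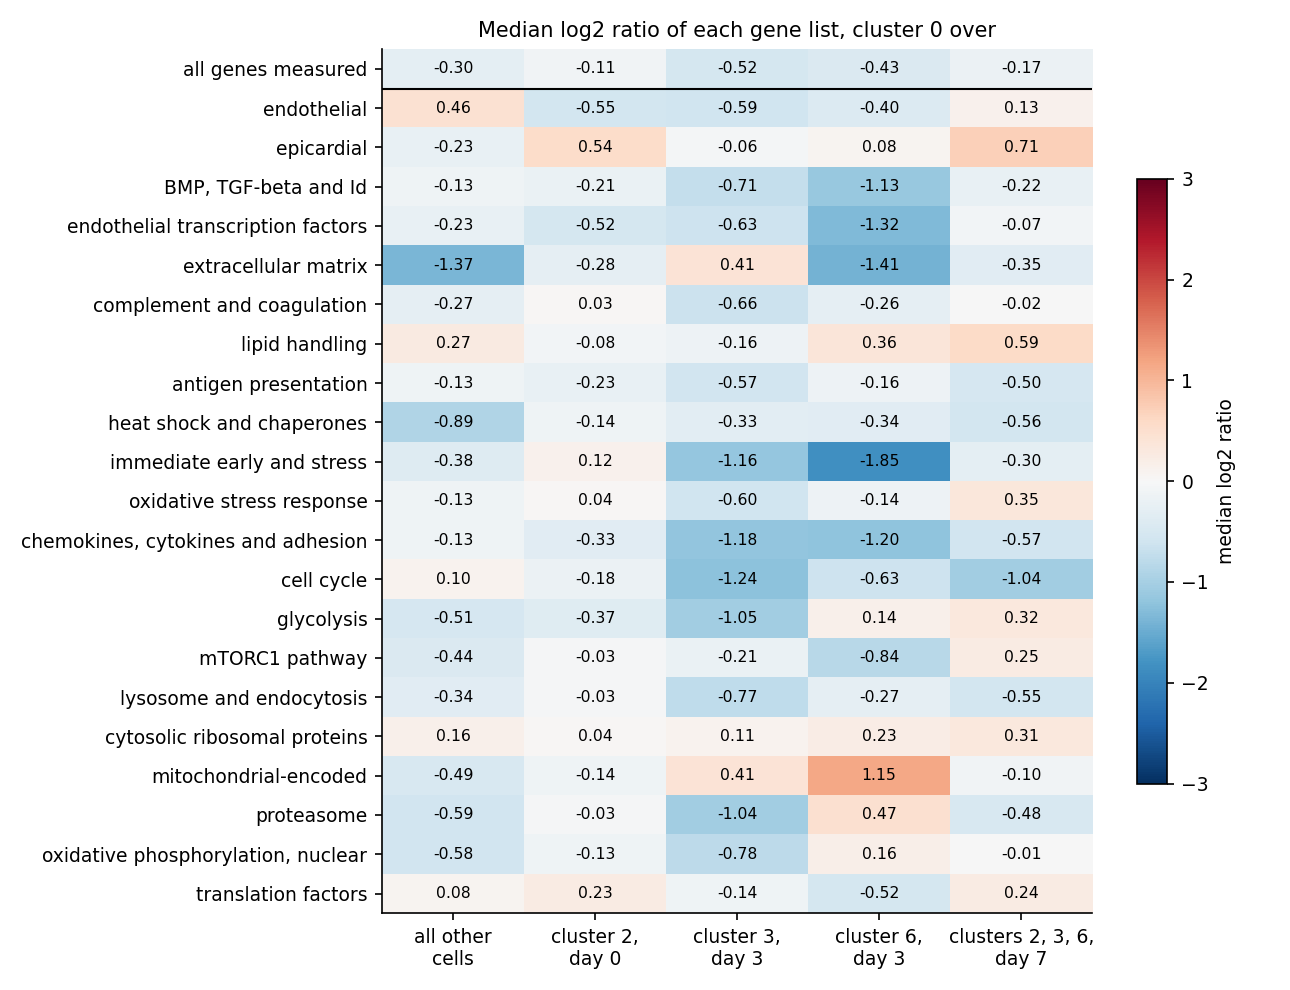
Median log2 ratio (colour and printed value) of cluster 0 over each comparison group for the gene lists with enough measured genes in all 5 comparisons, below the median of all genes measured. Of the lists drawn, extracellular matrix is lowest against all other cells at -1.37, and immediate early and stress genes are lowest against cluster 6 at day 3 at -1.85.

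Few genes set cluster 0 apart in every one of the 4 comparisons within a library. Of 660 genes measured in all 4, 49 were higher and 98 lower in cluster 0 each time. At least 2-fold in all 4 were only snrpb, higher, and tubb4b.1, lower. The ratios of snrpb, a core protein of the spliceosome, were 1.81 against cluster 2, 2.05 against cluster 3, 3.07 against cluster 6 and 1.2 at day 7. Without the richest cells they were -0.07, -0.93, 0.09 and 0.66, so snrpb did not hold. The ratios of tubb4b.1, a beta-tubulin, were -1.24, -1.68, -1.56 and -1.71, and without the richest cells -1.61, -1.88, -1.68 and -1.56. Its level was 25.6 CPM in cluster 0 against 74.3 in cluster 2 at day 0, 88.3 against 305 in cluster 3 and 279 in cluster 6 at day 3, and 75.3 against 270 at day 7. The UMIs behind these cluster 0 levels were 5, 8 and 52. The day 3 comparisons share their cluster 0 cells, so the 4 are not independent.

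By share of cells, few genes differed in the same direction in all 4. Of 773 genes 12 were in at least 10 points fewer cluster 0 cells in all 4 comparisons and 1, tomm5 of the mitochondrial import channel, in at least 10 points more. The level of tomm5 did not follow its share at day 3. Its log2 ratio was 0.004 against cluster 3 and -0.77 against cluster 6, and -0.15 and -0.86 without the richest cells. It was 0.35 against cluster 2 at day 0 and 2.85 at day 7. The 12 were the chaperone genes hsp70.1, hsp70.2, hsp70.3, hsp70l and hspe1, the RNA-binding genes khdrbs1a, hnrnpa0l, hnrnpabb and srsf3b, the immediate early gene junba, the actin-severing gene cfl1 and atpif1a, an inhibitor of ATP synthase. The 4 hsp70 genes are near-identical copies and may not be independent, and of the 22 chaperone genes compared at day 0, 9 were above 0 and 13 below. hsp70.3 and hsp70l were at least 20 points lower in all 4. hsp70.3 was in 30.6% of cluster 0 cells against 52.3% of cluster 2 cells at day 0, and in 37.5% against 80.0% of cluster 3 cells at day 3. At a limit of 5 points the genes more frequent in cluster 0 were eif3f, ndufb7, f8, tomm5, C3H7orf55 and gabarapb.

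**Figure D5:**
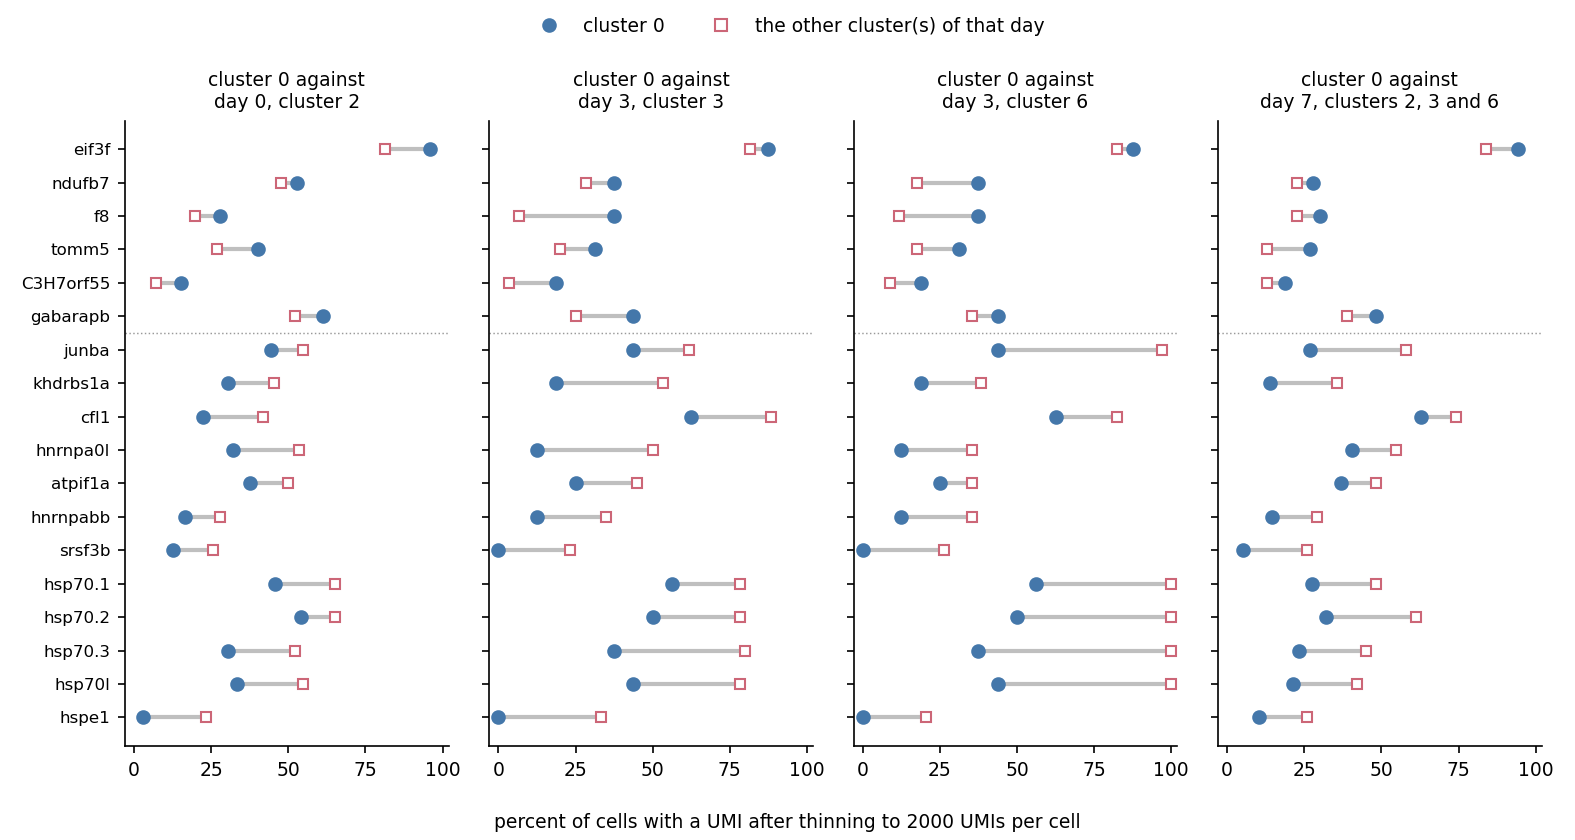
Percent of cells with each gene after thinning, in cluster 0 (filled circles) and in the endothelial cluster or clusters set beside it (open squares), for the 4 comparisons within a library; grey lines join the 2 values. Above the dotted line are the 6 genes at least 5 points higher in all 4, below it the 12 genes at least 10 points lower in all 4.

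Within cluster 0 the 3 days differed, with the day and the library inseparable. On days 0, 3 and 7 aqp8a.1 stood at 4988, 1987 and 1622 CPM, and summed endothelial markers had 7992, 3234 and 3320. In the same order nppb stood at 41.0, 1788 and 636 CPM. hsp70l had 615, 3852 and 802 CPM, but 324 of its 349 day 3 UMIs came from the deepest cell. The mitochondrial gene mt-cyb had 5562, 3068 and 1535 CPM. Summed cardiomyocyte markers had 44755, 14965 and 26057 CPM. The endothelial sum thus stood highest at day 0 beside the highest cardiomyocyte sum and the lowest depth, a median of 2323 UMIs per cell. What part these had in it was not tested.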

How the data were processed

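Reads were processed with Cell Ranger on GRCz10, per the submitters' processing notes. Its version, and what normalized the values, are not stated there. The authors deposited natural log (ln) expression values for 26320 genes in 754 cells. Per the file headers, the deposited metadata held counts of UMIs and genes per cell, a mitochondrial percent (0 in every cell, so the authors' percent was not used and it was recomputed from 13 genes), the day and 2 clusterings, of which resolution 0.4 gave cluster 0. Reversing the log and scaling by the cell's UMI count gave whole UMIs for all 497895 values above 0, within 0.001. Their sums matched the deposited UMI count of each of the 754 cells exactly, and 14041 genes had a UMI. The lowest cell had 2004 UMIs, no cell was removed and no doublet caller was run. Of the barcodes, 1 occurred in more than 1 library, and it belonged to 0 cells of cluster 0.

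UMIs were summed per group and scaled to CPM. With 1 library per day, and clusters made from the same genes, there is no test, and "called" means at least 2-fold apart on log2(CPM + 10), among genes with at least 20 UMIs over both sides and in at least 10% of the cells of either side. Named genes were the 5 of the working name, the 12 highest and 8 lowest ratios against all other cells, and the 6 highest and 4 lowest in each comparison within a library, all in at least 25% of the cells of the higher side, genes 2-fold apart in all 4, and members of the gene lists that were high or called. Genes named by their share of cells, and genes given as context, were chosen after their values were seen. The members, lists and comparisons were chosen with earlier results of these data known. A fold against a group at 0 uses a floor of 3 counts over the group. Shares come from thinning each cell to 2000 UMIs with 1 random seed. Computations used Python 3.11.15, numpy 2.4.6, pandas 2.3.3, scipy 1.17.1 and matplotlib 3.10.9, and the scripts were tested on simulated data. Alternatives were another pseudocount, no and stricter filters, thinned cells, equal weight per cell, single days, another resolution and leaving out the richest or the deepest cell. Sequences were not used here. Some genes are not reported here.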

Additional observations from a re-analysis of the deposited data

Results flagged for a closer look

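For 5 genes named above, cluster 0 stood at least 2-fold above all other cells at 1 day and at least 2-fold below them at another. The difference between days was not tested, because each day had 1 library. Log2 ratios of cluster 0 over all other cells at days 0, 3 and 7 were 1.77, -4.26 and -0.14 for btg2, an antiproliferative immediate early gene, and 0.42, -4.03 and 0.26 without the richest cells. For snrpd1, a core spliceosome protein, they were -2.31, 4.51 and -0.63, and -1.14, -0.26 and -0.62 without the richest cells. For psmb3, a proteasome subunit, they were -0.11, 4.34 and -1.02, and 0.01, 0.02 and -1.07 without the richest cells. For zgc:158463 they were 0.80, 3.48 and -1.78, and -1.93, 3.61 and -1.99 without the richest cells. For eif3ha, a translation initiation factor subunit, they were -2.10, 0.31 and 2.34, and -1.50, 0.06 and 0.65 without the richest cells. Without the richest cells, zgc:158463 alone of the 5 was still more than 2-fold above at 1 day and below at another.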

How the results depend on the processing

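No paired analysis was possible because no result comes from a test: the clusters were made from the same genes, so cluster 0 and all other cells of a library are set side by side as values only. The numbers of genes at least 2-fold higher and lower moved with the filter, the pseudocount and the richest cells. Against all other cells 100 were higher and 310 lower, and with no filter 200 and 727, with a stricter filter (50 UMIs and 25% of cells) 40 and 132. A pseudocount of 50 CPM gave 184 lower, and leaving out the richest cells 39 higher. Against cluster 2 at day 0 there were 88 higher and 166 lower, with 631 and 1156 unfiltered, 38 and 46 under the stricter filter and 53 and 68 at 50 CPM, and 43 were higher without the richest cells. Against cluster 3 at day 3 there were 61 and 278, with 1131 and 1610 unfiltered and 37 and 114 under the stricter filter, and 27 were higher without the richest cells. Against cluster 6 there were 103 and 272, with 1492 and 2186 unfiltered, 58 and 135 under the stricter filter and 52 and 135 after 1 random thinning to 2000 UMIs per cell, and 65 were higher without the richest cells. At day 7 there were 185 and 252, with 753 and 1192 unfiltered, 76 and 93 under the stricter filter and 104 and 115 at 50 CPM, and 153 were lower without the richest cells. The summed level of the 5 working-name genes was 2.47 times that of all other cells, and 2.12 at day 0 alone, 1.37 at day 3 alone, 5.79 at day 7 alone, 2.59 as a mean over cells and 2.24 without the richest cells; at day 3 without the deepest cell, an alternative added after seeing the data, it was 1.62. Some values turned sign at 1 day. In an alternative added after seeing the data, the day 3 median against all other cells was 0.91 for the fibroblast list and 0.077 for extracellular matrix. At day 3 alone the log2 ratio against all other cells was -0.64 for spock3, -0.61 for id2b, -0.54 for eif4ebp3, -0.094 for gltscr2, -0.015 for the transcript named only by its clone (-0.0062 at day 0 alone) and -0.11 for npc2. Against cluster 3, psmb3 and snrpb were -0.50 and -0.93 without the richest cells and -0.60 and -1.09 without the deepest cell, and snrpd1, si:ch211-218c6.8 and atf4a were -0.56, -0.66 and -0.11 without the richest cells. Against cluster 6, snrpb was -0.071 without the deepest cell, and against cluster 2 it was -0.071 without the richest cells. At the other resolution cluster 0 merges with clusters 2 and 3, so only 2 comparisons could be run, with 249 genes higher and 341 lower against all other cells and 292 and 227 against cluster 6. Unthinned, the shares of cells in cluster 0 were 93.6% for spock3, 47.3% for hmox1a, 37.7% for gchfr, 50.9% for jam2a and 96.8% for id2b. At 16 cells, shares at day 3 have wide intervals, and depth limits genes with few UMIs.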
